A study of Mus musculus with 10 samples.

Results

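The genes described here code for the proteins of the cytosolic ribosome, in the gastrocnemius, a calf muscle, of fasted mice with and without Skn-1. Members were the genes whose symbol in the platform's probe annotation reads Rpl or Rps followed by a number, with an optional closing letter, together with Rplp0, Rplp1, Rplp2 and Rpsa. Kinases of the Rps6k family, pseudogenes and mitochondrial ribosomal proteins were left out. The rule found 100 probe sets of 46 genes, among 45037 probe sets in all and 18193 genes with a probe set of their own. Of the members, 22 genes with 56 probe sets belong to the small subunit, 22 genes with 42 probe sets to the large subunit, and Rplp0 and Rplp2 with 1 probe set each to the stalk of the large subunit. Rplp1 had no probe set of its own. A further 110 probe sets name a ribosomal protein gene together with other genes, and they are counted separately and not named.

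The study hybridised 10 Affymetrix Mouse Genome 430 2.0 arrays. The first 5 are from male mice deficient in Skn-1 (also called Pou2f3, a POU-domain transcription factor known from taste and tuft cells), and the other 5 are from wild-type males. All 10 mice were 12 to 16 weeks old, fed chow and fasted for 18 h before dissection, and no fed muscle was measured. Per the labels, the deficient line came from a mixed 129 and C57BL/6J background and was crossed to C57BL/6J for over 10 generations. The labels give no exons for the deletion. The 2 genotypes are called knockout and wild type below, and arrays carry the numbers of the labels, which call them biological replicates.

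A cytosolic ribosome is built from a small subunit, which reads the mRNA, and a large subunit, which joins the amino acids. Each holds ribosomal RNA and many small proteins made in matched amounts. A stalk on the large subunit, made of Rplp0, Rplp1 and Rplp2, recruits the elongation factors. Most mRNAs of ribosomal proteins start with a C followed by a run of pyrimidines, the terminal oligopyrimidine or TOP motif. Through it, the kinase complex mTORC1 and the RNA-binding protein LARP1 set their translation and stability with nutrient supply. Fasting is known to lower mTORC1 activity in muscle, and both genotypes here were fasted.

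The start sites of some members are shown because this motif is known from most mRNAs of the family. The windows are examples in which it is more frequent than over all members, whose shares follow them. The RefSeq table of the GRCm38.p6 assembly held a promoter for 40 of the 46 member genes. Each line below gives 10 bases before to 20 bases from an annotated start, in the direction of the gene. Capitals mark a C within 5 bases of that start together with the pyrimidines after it, at least 4. Such a stretch may be part of a longer run that opens further upstream. This holds for Rpl35, Rpl38 and Rplp2, where the base before the capitals is also a pyrimidine.
Rpl35: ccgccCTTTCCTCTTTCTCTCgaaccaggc
Rpl13a: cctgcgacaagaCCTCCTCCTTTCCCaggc
Rpl38: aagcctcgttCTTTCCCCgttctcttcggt
Rps10: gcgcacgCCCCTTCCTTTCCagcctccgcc
Rps18: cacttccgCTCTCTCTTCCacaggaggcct
Rplp2: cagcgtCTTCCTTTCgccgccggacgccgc
Rplp0: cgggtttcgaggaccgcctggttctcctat
These windows lie at chr2:39005112-39005141 (Rpl35), chr7:45128726-45128755 (Rpl13a), chr17:27635225-27635254 (Rps10) and chr17:33955646-33955675 (Rps18) on the minus strand. On the plus strand lie chr11:114668570-114668599 (Rpl38), chr7:141447641-141447670 (Rplp2) and chr5:115559457-115559486 (Rplp0). The first 6 hold such a stretch and the window of Rplp0 does not. Over the 40 genes, 19 (47.5%) had one with its C within 5 bases of a start, against 21.2% of 27025 genes in the same table. A stretch whose C is the start base itself was present in 8 of 40 (20%), against 3.01% of all genes. The search was made on the gene's own strand, 7 of the 40 genes have several annotated starts, and a window without the letters says nothing about the mRNA in muscle.

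For Rps25, the member whose values differ most between the genotypes, 50 bases are shown, from 30 bases before its annotated start (chr9:44407684-44407733, plus strand).
Rps25: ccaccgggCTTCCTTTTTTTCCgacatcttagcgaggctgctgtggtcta
The capitals are a run of 14 pyrimidines opening with C that begins 22 bases before the annotated start.

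Several facts about the arrays bear on what follows. The values are read as log2, and the array medians lay between 6.23 and 6.24. The targeted gene could not check the labels: its probe set stood at 6.47 in each of the 10 arrays and hardly varied (limma unadjusted p = 0.577). Of 12 lymphocyte marker genes measured, 10 had 16 varying probe sets, whose mean set knockout 5 and wild type 3 apart. Their mean deviation from the 10-array mean was 1.33 in knockout 5 and 1.31 in wild type 3 (log2). It was between −0.42 and −0.26 in the other 8 arrays. Not every probe set had this order: 1 of Ighm stood at 6.04 in wild type 3, against 6.23 in knockout 1. Of 14 epidermis and hair genes, 13 had a varying probe set, and their mean deviation was 0.71 in knockout 1, 1.0 in knockout 4, 0.60 in wild type 1 and 0.52 in wild type 3, while the other 6 arrays lay between −0.48 and −0.45. Not every gene of that list was high in all 4 of these arrays. Krt25, a hair keratin, stood at 5.88 in knockout 1 and 5.75 in knockout 4, against 9.10 in wild type 1 and 8.21 in wild type 3. Krt1, a keratin of the upper epidermis, stood at 7.36 in knockout 1 and 7.58 in knockout 4, against 5.87 in wild type 1 and 6.18 in wild type 3. Both genes were named after their values were seen. All 12 skeletal muscle markers were measured, and the mean deviation of the 7 with a varying probe set stayed between −0.097 and 0.092. In such bulk samples, fewer cells of a type and less RNA per cell cannot be told apart.

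Most probe sets on these arrays hardly varied as deposited, and those of ribosomal proteins varied more often. An SD over the 10 arrays above 0.01 is called varying here, a limit set with these values known. By it 64 of the 100 member probe sets (64%), from 37 of the 46 genes, varied, against 6209 of all 45037 probe sets (13.8%). The share of members differed by type of probe set. It was 8 of 31 for the plain type (suffix _at alone), 24 of 26 for _a_at, 2 of 3 for _s_at and 30 of 40 for _x_at. Shares of each type over all probe sets were not counted. The 9 genes with no varying probe set were Rpl12, Rpl14, Rpl39, Rpl39l, Rps2, Rps4l, Rps6, Rps16 and Rps27. Rps6, whose protein is the substrate that gives S6 kinase its name, was thus not readable here. Of the 36 member probe sets that hardly varied, 4 had an unadjusted limma p under 0.05, where the share over all such probe sets was 6.09%. None of the 36 passed the adjusted threshold, and no size is given for their differences.

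Ribosomal protein mRNAs were slightly lower on average in knockout muscle, mostly by less than the spread between animals, and the direction depended on which arrays were counted. Of the 64 varying probe sets, 61 had a lower mean in knockouts and 3 a higher one, where 50.8% of all varying probe sets were lower. Their median difference, knockout minus wild type, was −0.062 on the log2 scale, against −0.0021 over all varying probe sets. Single differences ran from −0.39 to 0.0065. With limma over all probe sets, 1 of the 100 member probe sets passed an adjusted p of 0.05, that of Rps25, and it was lower. Over all 45037 probe sets 0.191% passed, and 0.0355% passed as lower. Among the varying ones alone these shares were 0.966% and 0.129%. At an unadjusted p under 0.05, 2 of the 64 were lower, Rps25 and Rplp0, and none was higher, against 2.48% lower and 7.44% higher over all varying probe sets. In 1 of the 64, again Rps25, all knockout arrays lay below all wild-type arrays, against 0.596% of all varying probe sets, and in none did they lie above, against 3.37%.

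**Figure D1:**
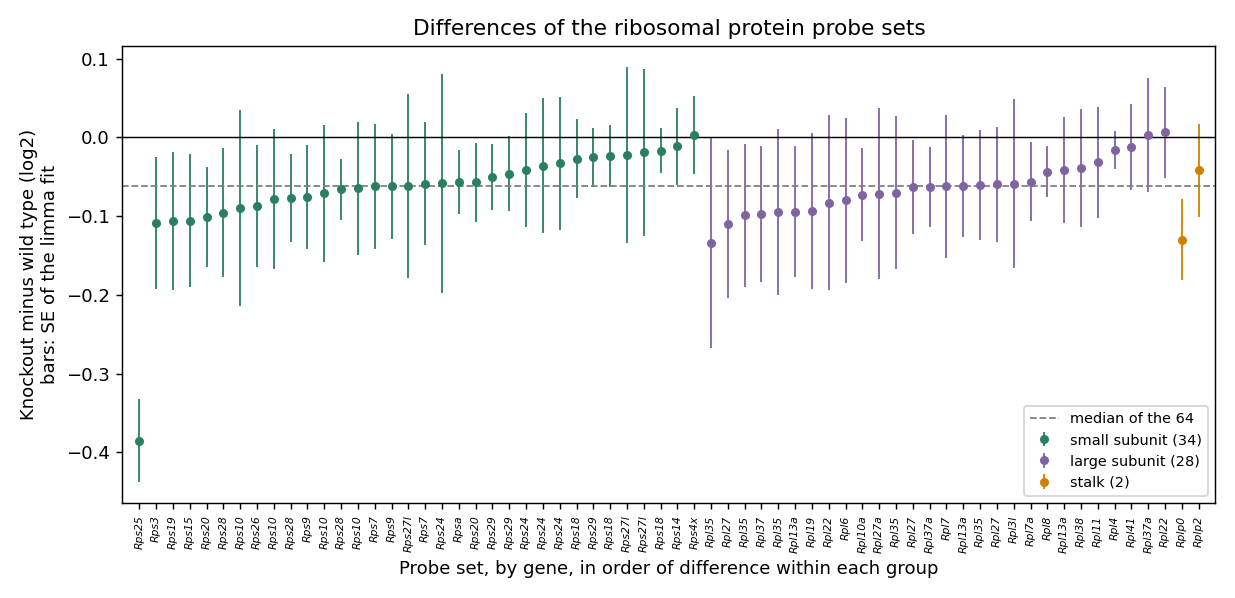
Difference of each of the 64 varying ribosomal protein probe sets, knockout minus wild type (log2, vertical axis), by gene within the small subunit, the large subunit and the stalk. Bars are the SE of the limma fit, the dashed line is the median of −0.062, and Rps25 stands apart at −0.39 while most bars reach 0.

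With 1 probe set per gene, the brightest, 36 member genes varied and 35 of them were lower in knockouts, with a median of −0.061. None of the 46 genes passed with limma adjusted over the 18193 genes, of which 0.0275% did. At an unadjusted p under 0.05 there were 4, against 5.43% of all genes. Rps25 then had an adjusted p of 0.156 with limma.

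Rps25 is a small-subunit protein known for its part in initiation from the internal ribosome entry sites of several viruses. Its single probe set stood at 7.24, 7.08, 7.09, 7.07 and 7.04 in knockouts 1 to 5. In wild types 1 to 5 it stood at 7.56, 7.37, 7.58, 7.43 and 7.51. Every knockout array was below every wild-type array, and knockout 1 was the highest of its group. The means were 7.10 ± 0.0801 in knockouts and 7.49 ± 0.0903 in wild types (SD, n = 5 each). The ratio of knockout to wild type in the deposited values was 0.766. No other varying member probe set had group means this low, the next being Rpl27a at 8.23 in knockouts and 8.31 in wild types. That the Rps25 probe set reads above background is not shown. The log2 difference was −0.39 ± 0.05 SE (limma adjusted p = 0.0385). The call was near the threshold, and most fits with an array left out lost it. With each of the 10 arrays left out in turn it held in 2 fits, without knockout 1 or without wild type 2. It was lost without any one of the other 8, where the limma adjusted p reached 0.132, while the difference stayed between −0.42 and −0.36. After quantile normalization the limma adjusted p was 0.0588, with a difference of −0.39. It was 0.269 with limma without the 2 arrays with lymphocyte markers (difference −0.35), and 0.439 without the 4 with epidermis and hair markers (difference −0.37).

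Rps25 lies on chromosome 9, as does Pou2f3, 45 places away in the order of annotated genes. Of the nearest genes with a probe set of their own, from 10 places before Rps25 to 9 places after it, 3 had a varying one. Ddx6, an RNA helicase, was higher in knockouts (log2 difference 0.50, limma adjusted p = 0.00496), Slc37a4, the glucose-6-phosphate transporter, differed by 0.58 (limma adjusted p = 0.171), and Trappc4, of a vesicle tethering complex, by −0.18 (limma adjusted p = 0.0968). DNA of the 129 strain that may remain beside a targeted gene goes with the genotype, and the 2 cannot be told apart in these samples. The other members on chromosome 9 lie further off, Rpl4 at 508 places, Rps27l at 589, Rpsa at 1614 and Rpl14 at 1629. The 6 varying probe sets on chromosome 9 were all lower in knockouts, with a median of −0.040, and 55 of the 58 elsewhere were lower, with a median of −0.062. Whether the place on the chromosome has a part in the members' values was not tested. Rpl4, a large-subunit protein that lines the exit tunnel, differed by −0.016 ± 0.025 SE, less than its spread.

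Rplp0, the base of the stalk, had the next smallest p among the varying probe sets. Its probe set stood at 12.31, 12.28, 12.36, 12.32 and 12.39 in knockouts 1 to 5, and at 12.60, 12.33, 12.53, 12.39 and 12.46 in wild types 1 to 5. Wild types 1, 3 and 5 were above every knockout array, wild type 4 was level with knockout 5, the highest of the knockouts, and wild type 2 lay within the knockout range. The means were 12.33 ± 0.0439 in knockouts and 12.46 ± 0.110 in wild types (SD, n = 5 each). The log2 difference of −0.13 ± 0.05 SE had an unadjusted p of 0.0340 and did not pass (limma adjusted p = 0.696). Rplp2, its partner in the stalk, stood at 12.54 ± 0.0530 in knockouts and 12.58 ± 0.126 in wild types (SD, n = 5 each), with a difference of −0.042 ± 0.059 SE.

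**Figure D2:**
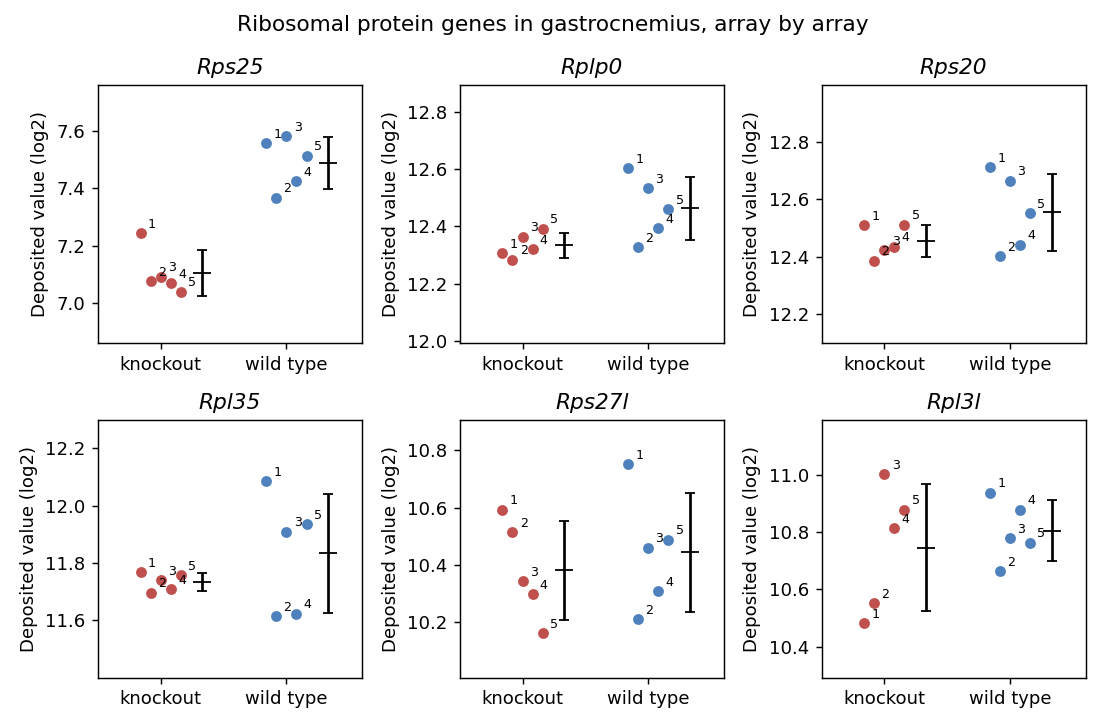
Deposited values (log2, vertical axis) of 6 ribosomal protein genes, each with 1 varying probe set shown, by genotype, with the array number beside each point and the mean ± SD of 5 arrays at the side. Rps25 separates the genotypes, while in Rplp0, Rps20, Rpl35, Rps27l and Rpl3l they overlap.

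In the small subunit 33 of the 34 varying probe sets were lower in knockouts, with a median of −0.060. Apart from Rps25, the 7 members with the smallest p among varying probe sets were Rps28, Rps20, Rpsa, Rps3, Rps15, Rps19 and Rps29. None of them passed (limma adjusted p between 0.886 and 0.945). Rps20 stood at 12.51, 12.39, 12.42, 12.43 and 12.51 in knockouts 1 to 5, against 12.71, 12.40, 12.66, 12.44 and 12.55 in wild types 1 to 5. Wild types 1, 3 and 5 were above all knockouts, and wild types 2 and 4 were among them. Its difference was −0.10 ± 0.06 SE in this probe set, that with the smaller p, and −0.057 ± 0.050 SE in its other varying one.

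Rps19, whose human gene is mutated in Diamond-Blackfan anaemia, also had wild types 1, 3 and 5 on top. It stood at 11.33, 11.21, 11.16, 11.22 and 11.32 in knockouts 1 to 5, against 11.49, 11.14, 11.55, 11.17 and 11.43 in wild types 1 to 5. Those 3 wild types were above all knockouts and wild type 2 was below them all, and the difference was −0.11 ± 0.09 SE. Rps3, a protein at the site where mRNA enters the subunit, differed by −0.11 ± 0.08 SE, and Rps15 by −0.11 ± 0.08 SE. Rpsa, also called the laminin receptor, differed by −0.057 ± 0.041 SE in its varying probe set, and its other probe set hardly varied. Rps28 differed by −0.066 ± 0.039 SE and Rps29 by −0.050 ± 0.042 SE in the probe set with the smallest p, and each had 3 varying probe sets, all lower in knockouts. Rps4x, which lies on the X chromosome, was the small-subunit member with a difference above 0, of 0.0029 ± 0.0498 SE.

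In the large subunit 26 of the 28 varying probe sets were lower in knockouts, with a median of −0.062. The 8 members with the smallest p among varying probe sets were Rpl8, Rpl10a, Rpl37a, Rpl27, Rpl13a, Rpl7a, Rpl37 and Rpl35, and none passed (limma adjusted p between 0.934 and 0.954). Rpl35, a protein at the mouth of the exit tunnel, had 5 varying probe sets, all lower in knockouts, with differences from −0.13 to −0.061. One of them, that with the smallest p, stood at 11.77, 11.70, 11.74, 11.71 and 11.76 in knockouts 1 to 5, against 12.09, 11.61, 11.91, 11.62 and 11.93 in wild types 1 to 5. The 5 knockouts lay close together, with 3 wild types above and 2 below all of them. The SD was 0.0311 in knockouts and 0.207 in wild types (n = 5 each). In the other 4 probe sets of Rpl35 the SD ran from 0.0386 to 0.152 in knockouts and from 0.156 to 0.266 in wild types, so the knockouts were not as close together in all of them.

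Rpl13a, which is also known for a role outside the ribosome in silencing inflammatory mRNAs, differed by −0.094 ± 0.083 SE in the probe set with the smallest p. Its 3 varying probe sets ran from −0.094 to −0.041. Rpl27 differed by −0.11 ± 0.09 SE in the probe set with the smallest p, and its 3 varying ones ran from −0.11 to −0.060. Rpl37 differed by −0.097 ± 0.087 SE and Rpl10a by −0.073 ± 0.059 SE. Rpl7a (−0.056 ± 0.050 SE) and Rpl8 (−0.043 ± 0.033 SE) had differences near their SE. Rpl37a gave −0.062 ± 0.051 SE in the probe set with the smaller p and 0.0031 ± 0.0719 SE in the other varying one. Rpl22 likewise gave −0.083 ± 0.112 SE in one and 0.0065 ± 0.0578 SE in another. Of the 14 member genes with several varying probe sets, 12 had all of them lower in knockouts, and the 2 mixed genes were these.

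Among the paralogues, Rpl3l had another order of arrays than most members. Rpl3l, which stands in for Rpl3 in striated muscle, stood at 10.48, 10.55, 11.00, 10.81 and 10.88 in knockouts 1 to 5, against 10.94, 10.66, 10.78, 10.88 and 10.76 in wild types 1 to 5. Knockouts 1 and 2 were the lowest of the 10 arrays and knockout 3 the highest, so the groups overlapped. Its difference was −0.059 ± 0.107 SE (limma adjusted p = 0.988), and it was 0.0073 without knockout 1. Rps27l, a paralogue of Rps27 induced by p53, had 3 varying probe sets with differences of −0.062, −0.022 and −0.019, each under its SE. Without wild type 1 these were 0.016, 0.053 and 0.061. Rpl39l and Rps4l hardly varied, and Rpl10l and Rpl36al had no probe set of their own.

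The members moved together from array to array, and by more within the wild types than between the genotypes. The mean deviation of the 64 probe sets from their 10-array means was 0.062, −0.033, −0.076, −0.082 and −0.036 in knockouts 1 to 5 (log2). In wild types 1 to 5 it was 0.19, −0.10, 0.13, −0.11 and 0.060. Both the highest arrays (wild types 1 and 3) and the lowest (wild types 2 and 4) were thus wild type, with the 5 knockouts between them. The mean over arrays was −0.033 ± 0.0577 in knockouts and 0.033 ± 0.136 in wild types (SD, n = 5 each). The range within the wild types, 0.30, was larger than the difference of the means, −0.066.

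Counts of probe sets gave the same picture. In knockouts 1 to 5, 55, 22, 1, 5 and 24 of the 64 stood above their own 10-array mean. In wild types 1 to 5 these were 64, 4, 63, 2 and 58. Between 33.4% and 57.9% of all varying probe sets were above their mean in any one array. The highest value of a member probe set was in wild type 1 for 42 and in wild type 3 for 21. The lowest was in wild type 4 for 27 and in wild type 2 for 20. Over all 6209 varying probe sets the highest was in wild type 1 for 1024 and in wild type 3 for 867. There the lowest was in wild type 4 for 558, in wild type 2 for 537 and in wild type 1 for 1562. Both subunits had the same extreme arrays: for the small subunit the mean deviation was 0.18 in wild type 1 and −0.11 in wild type 4, and for the large subunit 0.21 and −0.12. The SD was larger in wild types than in knockouts for 61 of 64 probe sets (95.3%), against 56.6% of all varying probe sets. The median SD of the members was 0.0724 in knockouts and 0.142 in wild types.

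**Figure D3:**
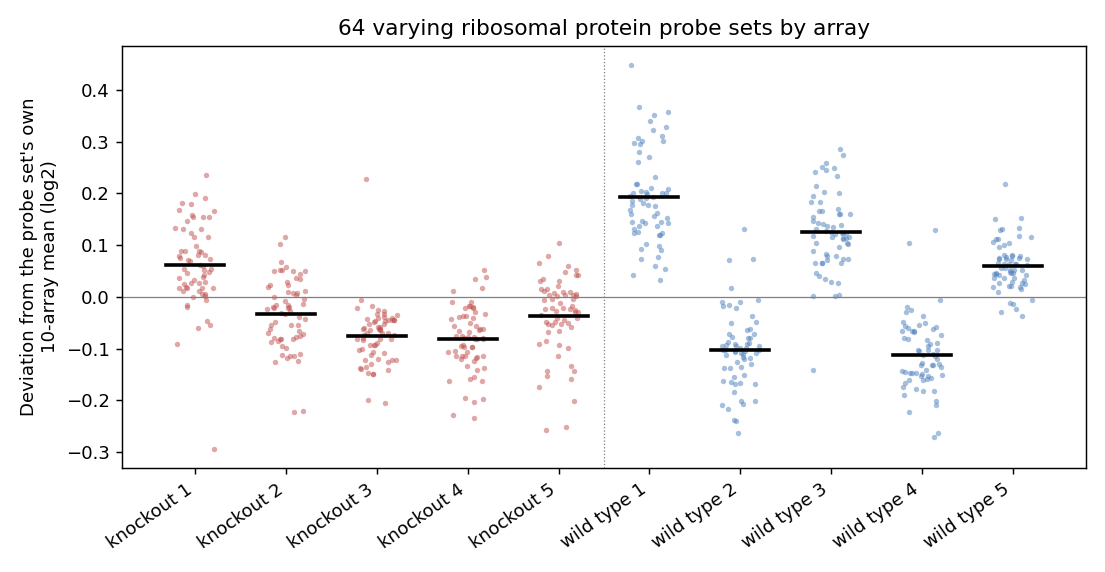
Deviation of each of the 64 varying ribosomal protein probe sets from its own mean over 10 arrays (log2, vertical axis), by array, with the mean of each array as a bar. Wild types 1 and 3 are highest and wild types 2 and 4 lowest, and the 5 knockouts lie between −0.082 and 0.062.

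The size of the shift followed which wild-type arrays were counted. Without wild type 1 the median difference was −0.025 and 49 of the 64 were lower in knockouts. Without wild type 3 it was −0.037, without wild type 2 −0.094 and without wild type 4 −0.097. Without the 2 arrays with lymphocyte markers the median was −0.035, with 56 lower. Without the 4 arrays with epidermis and hair markers 27 of the 64 were lower and the median was 0.0072. Without all 5 arrays that carried markers of either kind 31 were lower and the median was 0.0050, so the direction did not hold there. Wild types 1 and 3 are among those 4, as are knockouts 1 and 4, of which knockout 4 was the lowest of its group for the ribosomal proteins. Whether the marker genes' source has a part in the ribosomal protein values was not tested.

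**Figure D4:**
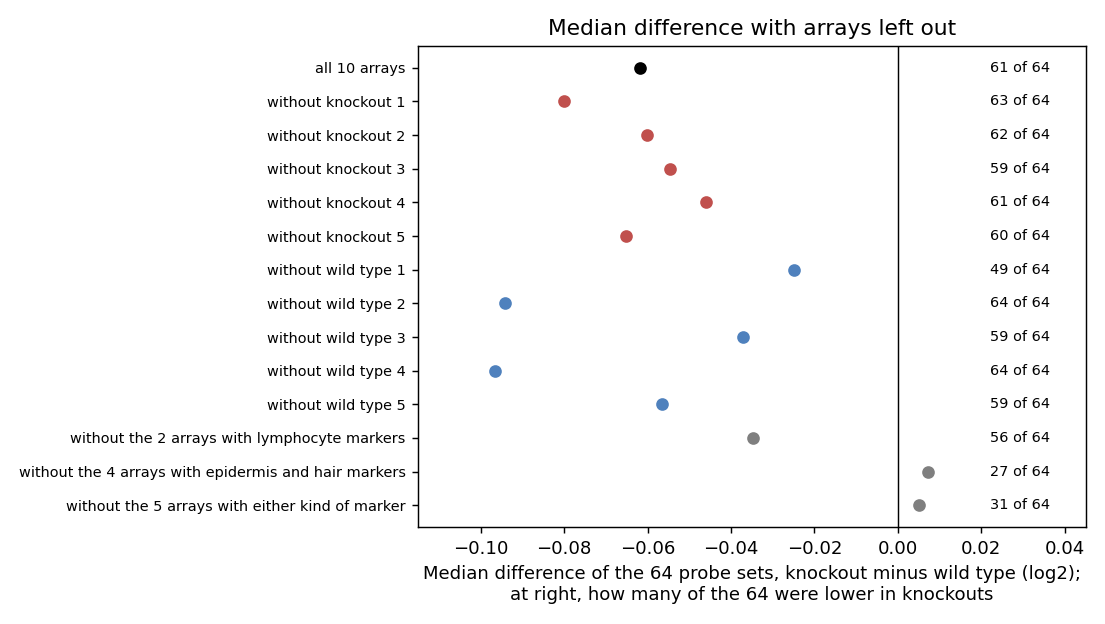
Median difference of the 64 varying ribosomal protein probe sets, knockout minus wild type (log2, horizontal axis), with all arrays, with each array left out and with the arrays that carried markers of other tissues left out. Numbers at the right count the probe sets lower in knockouts, and the median passes 0 when the 4 or 5 marker-bearing arrays are left out.

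The 3′ and 5′ probe sets of the actin and Gapdh controls, a measure of RNA integrity, overlapped between the genotypes. The 3′ minus 5′ value of actin was 0.64, 0.55, 0.33, 0.75 and 0.82 in knockouts 1 to 5, and 0.46, 0.57, 0.72, 0.33 and 0.55 in wild types 1 to 5 (log2). For Gapdh it was 0.53, 0.47, 0.34, 0.41 and 0.32 in knockouts 1 to 5, and 0.45, 0.50, 0.37, 0.32 and 0.42 in wild types 1 to 5. Wild type 4, the lowest array for the ribosomal proteins, was also the lowest wild type in both controls, while wild type 1, their highest array, was the highest in neither. The part of RNA integrity in the ribosomal protein values was not tested.

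The direction was shared by probe sets of the x type, which can share probes with other transcripts, and by those of other types. Probe sets of the x type were lower in 29 of 30 cases. Without them 32 of 34 members were lower, with a median of −0.068. These 34 still include 24 of the _a_at and 2 of the _s_at type. Of the plain type 7 of 8 were lower, with a median of −0.067. Of the 82 varying probe sets that name a ribosomal protein gene and other genes, 79 were lower, with a median of −0.051. Their array means were 0.18 in wild type 1 and −0.12 in wild type 4, the same extremes as for the members. Processed copies of ribosomal protein genes are many, so a probe set of this family may read more than 1 locus.

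Other lists of the translation machinery had medians from −0.084 to −0.0020. Over all varying probe sets the median was −0.0021 and 50.8% were lower. The lists were written with earlier results of these data known, and no list was tested. Of 46 varying probe sets of mitochondrial ribosomal proteins, which are encoded in the nucleus and serve the ribosome of the mitochondrion, 42 were lower in knockouts, with a median of −0.075. None passed with limma, and 4 of the 46 had an unadjusted p under 0.05, all of them lower, against 2.48% lower over all varying probe sets. Mrpl44, of the large mitochondrial subunit, had the smallest p (7.70 ± 0.105 in knockouts, 7.88 ± 0.0620 in wild types, SD, n = 5 each, log2 difference −0.18, limma adjusted p = 0.467). Mrps18b, of the small mitochondrial subunit, differed by −0.074 (limma adjusted p = 0.610). By array this list stood highest in wild type 1 (0.26), as for the cytosolic members. Wild type 1 was the highest array for 38 of the 46, against 1024 of all 6209 varying probe sets. In wild type 3 it was near 0 (0.00045), unlike the cytosolic members.

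Elongation factors and other TOP transcripts had 32 varying probe sets of 19 genes, 22 of them lower, with a median of −0.050. None passed with limma, and at an unadjusted p under 0.05 there were 2 lower and 2 higher, where 2.48% and 7.44% of all varying probe sets were. The 2 lower were of Hnrnpa1 and Gas5, and the 2 higher of Ncl and Nap1l1. Hnrnpa1, an RNA-binding protein of splicing, differed by −0.34 (limma adjusted p = 0.578). Ncl, nucleolin, differed by 0.25 (limma adjusted p = 0.624) in the probe set with the smaller p. The other varying probe set of Ncl, which was brighter, gave −0.053 ± 0.101 SE. Among the elongation factors, Eef1d, of the exchange complex, differed by −0.093 ± 0.066 SE (limma adjusted p = 0.931). Eef2, the translocation factor, differed by −0.013 ± 0.029 SE. Eef1a1, which brings in the aminoacyl-tRNA, differed by 0.060 ± 0.153 SE, and Eef1b2, its exchange factor, by −0.083 ± 0.076 SE. Eef1a2 differed by −0.023 ± 0.077 SE. Gas5 gave −0.26 and −0.19 in its varying probe sets, and Snhg1 gave −0.31, −0.24 and −0.32. The varying probe sets of Nap1l1 ran from −0.078 to 0.21. The elongation factors, Gas5, Snhg1, Nap1l1 and Fau below were named after their values were seen. Fau, whose product carries the small-subunit protein Rps30, differed by −0.047 ± 0.072 SE.

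Of 15 varying probe sets of ribosome biogenesis genes, 13 were lower, against 50.8% of all varying probe sets. With limma 1 passed, as higher, where 0.966% of all varying probe sets passed in either direction. At an unadjusted p under 0.05, 3 were lower and 1 was higher, against 2.48% lower and 7.44% higher over all varying probe sets. The one that passed was Ubtf, the upstream binding factor that RNA polymerase I needs on ribosomal DNA. Its probe set stood at 6.60, 6.71, 6.94, 6.77 and 6.86 in knockouts 1 to 5, against 6.10, 6.16, 6.05, 5.99 and 5.89 in wild types 1 to 5. All knockouts were above all wild types. The means were 6.78 ± 0.133 in knockouts and 6.04 ± 0.103 in wild types (SD, n = 5 each), a log2 difference of 0.74 ± 0.07 SE (limma adjusted p = 0.00953). The wild-type mean lies below the array medians and is not shown to be above background, so the fold is that of the deposited values. Its other probe set hardly varied. Without the 2 arrays with lymphocyte markers the limma adjusted p was 0.135 (difference 0.72), and without the 4 with epidermis and hair markers 0.439 (difference 0.82). Rrs1, an assembly factor of the large subunit, differed by −0.20 (limma adjusted p = 0.607), and the list's median was −0.084.

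Varying probe sets of mTORC1 and S6 kinase signalling genes, which govern the translation of TOP mRNAs, did not lean one way as a list. The list had 51 probe sets of 19 genes, and none of Mtor, Rptor, Mlst8, Rheb, Tsc1, Tsc2, Akt1s1 or Rps6kb2 varied. Within it, all varying probe sets of Deptor were higher (0.25 to 0.37) and all those of Eif4ebp1 were lower (−0.31 to −0.18). Eif4ebp1 was named after its values were seen. Of the 19 varying probe sets, from 8 genes, 10 were lower, with a median of −0.0020. None of these 19 passed with limma, and 4 of them had an unadjusted p under 0.05, 3 of Deptor and 1 of Eef2k. All 4 were higher, the more common direction, with 7.44% higher and 2.48% lower over all varying probe sets. Deptor, an inhibitor bound to mTOR, stood at 9.17 ± 0.213 in knockouts and 8.81 ± 0.0929 in wild types (SD, n = 5 each), a difference of 0.37 (limma adjusted p = 0.398). Eef2k, the kinase that slows elongation by acting on Eef2, differed by 0.18 (limma adjusted p = 0.689) in the probe set with the smaller p. It differed by 0.0075 ± 0.0293 SE in its other varying one. Larp1, the protein that binds TOP mRNAs, differed by 0.014 ± 0.039 SE, less than its spread; it too was named after its value was seen.

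**Figure D5:**
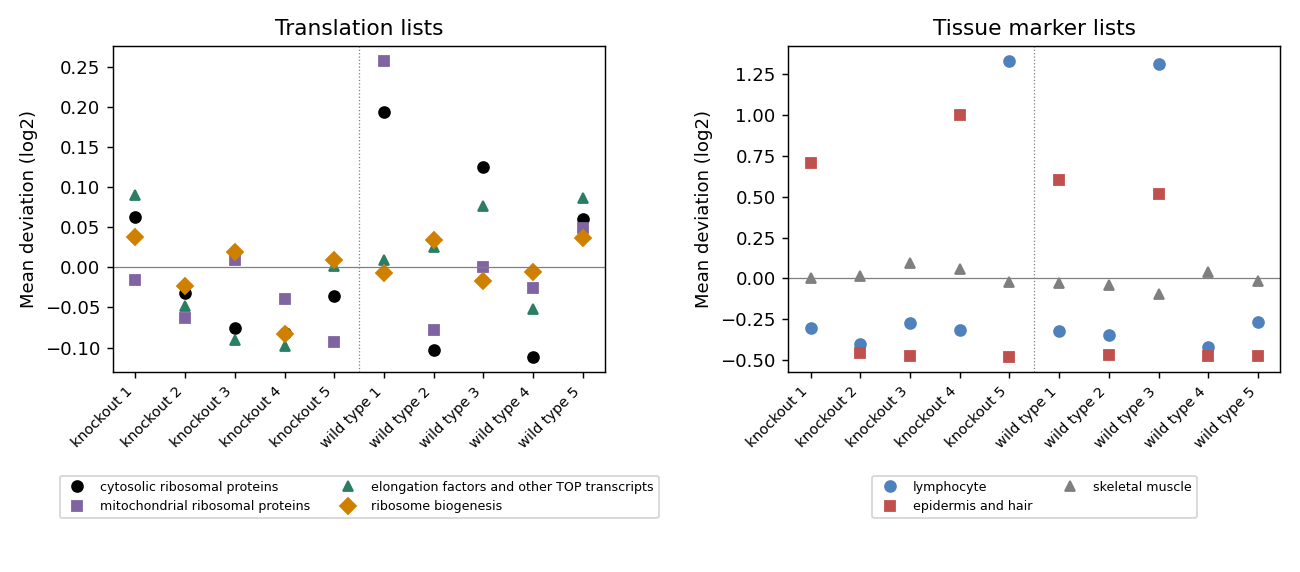
Mean deviation from the 10-array mean (log2, vertical axes) by array, for the varying probe sets of 4 translation lists at left and of 3 tissue marker lists at right. Cytosolic and mitochondrial ribosomal proteins are both highest in wild type 1, at 0.19 and 0.26, while lymphocyte markers are high in knockout 5 and wild type 3.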

How the data were processed

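Expression was measured in gastrocnemius with 1 array per mouse. Per the labels' protocols, 100 ng of Trizol-extracted, column-purified RNA was labelled for each array. Deposited numbers were taken for log2 values that the authors had already normalized between arrays, from their range (4.93 to 13.96) and near-equal medians. What software made them and with which log base is not given in the sources used here, so folds rest on that reading. The 64 array control rows were left out. Symbols come from the platform annotation, brought up to date through a RefSeq gene table (GRCm38.p6): 34945 probe sets had 1 gene, 932 several and 9160 none. No 2 arrays were identical.

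The comparison used limma (version 3.58.1, R 4.3.3) with lmFit and eBayes, no trend and no weights, over 45037 probe sets, with Benjamini-Hochberg adjustment at 0.05 over all of them, and likewise over 18193 genes by their brightest probe set. The fit was tested on simulated data. Medians, counts and marker means are descriptions. Members and lists were chosen with earlier results of these data known, and the sets of arrays left out by markers were chosen after seeing the data. Named genes were members past the threshold, up to 8 per subunit by smallest p, the paralogues, the stalk proteins and Rpsa, members on the chromosome of Pou2f3, and 2 genes per further list. Precision is limited by the number of arrays. Alternatives covered normalization, filters, array weights, variance moderation, a replicate block, arrays left out, the probe set per gene and the choice of members. Tables and figures were made with pandas 2.3.3, numpy 2.4.6, matplotlib 3.10.9 and Python 3.11.15.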

Additional observations from a re-analysis of the deposited data

Results flagged for a closer look

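Of 64 groups of 5 values tested for a sample far from the rest, 3 had one, and chance alone marks about 1 in 20. All 3 were high values of knockout 1. Rps25 stood at 7.24 there, against 7.04 to 7.09 in the other 4 knockouts. Rps15 stood at 11.46, against 11.20 to 11.27. Rpl37 stood at 8.81, against 8.63 to 8.65. Knockout 1 was also the highest knockout in the mean of all 64 member probe sets.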

How the results depend on the processing

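With 5 arrays per genotype, differences near −0.06 on the log2 scale lie within the SE of most members. The median stayed below 0 under 23 of 25 alternatives and ran from −0.097 to −0.025 with each array left out. It was 0.0072 without the 4 arrays with epidermis and hair markers (27 lower) and 0.0050 without the 5 with either kind of marker (31 lower). The number lower was 49 to 64 with each array left out. With other members it was 140 of 146 when probe sets of several genes were added, 32 of 34 without x-type probe sets and 36 of 37 with the brightest varying probe set of each gene.

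The number of member probe sets past the threshold, 1, was 0 after quantile normalization, with trend and robust moderation, with the replicate block and without each of the 3 sets of marker-bearing arrays, and 0 to 1 with each array left out. Limma adjusted p for Rps25 ran from 0.00888 to 0.810 and passed in 6 of 20 alternatives, with the same direction in all of them. It was 0.237 with the replicate block. Among member genes, 1 passed with varying probe sets alone, with the mean of a gene's probe sets or with its most variable one. The numbers were not taken to pair arrays: same-numbered deviations correlated at 0.25, 0.32, −0.40, 0.023 and −0.14, and 4 of 10 arrays correlated best with their own number. The cause of these changes was not tested.

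Among other lists, the median of mitochondrial ribosomal proteins was 0.0057 without the 5 marker-bearing arrays. That of mTORC1 signalling ran from −0.051 to 0.087 with each array left out. With each array left out, Rpl4 ran from −0.029 to 0.00024, Rpl3l from −0.12 to 0.0073, and the Rps27l probe sets from −0.076 to 0.061, −0.12 to 0.016 and −0.075 to 0.053. Rpl4 was 0.0057 after quantile normalization and 0.012 without the 4 arrays with epidermis and hair markers. Rpl3l was 0.042 without those 4 and 0.0088 without the 5. Without the 4, Rpl8 was 0.0040, Rpl13a 0.0066, Rpl35 0.0073 and Rplp2 0.027. Without the 5, Rplp2 was 0.022 and Rpl10a 0.0041. The 3 Rps27l probe sets were 0.047, 0.0041 and 0.036 without the 4, and 0.11, 0.093 and 0.11 without the 5. The first and last of these were 0.020 and 0.030 without the 2 arrays with lymphocyte markers. Ubtf had a limma adjusted p of 0.259 with the replicate block and 0.810 without the 5.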
